A study of Mus musculus with 18 samples.

Results

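Transcripts of 9 genes of fibrinolysis and of clotting control at the vessel wall were followed in mice with an acute gout-like reaction, out of 55359 genes listed in the count tables. The genes were Plaur, Plau, Plat, F3, Thbd, F10, Vwf, Procr and Tfpi. They were named as a group by function and were chosen by measured values as well: the group was taken up because Plaur and F10 responded in the spinal cord. The spinal cord values of these 9 genes are therefore given as a description with no test, and tests were made in the other tissues. All 9 had enough counts to be tested in the ankle and in the ganglia.

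C57BL/6 mice aged 10 weeks received 100 µl of monosodium urate (MSU) crystals, the crystals of gout, or saline (PBS) at the right ankle joint, and tissue was taken 8 h later. The labels describe the injection as subcutaneous and into the joint, and their treatment field calls the controls untreated where the protocol says PBS, so controls are taken here as PBS-injected. Bulk RNA was sequenced from 3 tissues, ankle joint, spinal cord and the dorsal root ganglia (DRG), where sensory neurons have their cell bodies, with 3 control and 3 MSU libraries for each tissue, 18 in all. The titles of the control libraries carry the word WT, where those of the MSU libraries carry MSU. No transgene or deletion is named for any group, and neither the level nor the side of the ganglia and cord is given.

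Libraries held 11632950 to 38812815 counts, so that 3 counts corresponded to between 0.0773 and 0.258 CPM, the counts scaled to library size. Marker genes matched the tissue labels. In controls the summed level of 8 sensory neuron markers was 7148.7 to 8645 CPM in DRG and 20.0 to 23.5 CPM in ankle. The 6 joint markers summed to 7874.4 to 10533.1 CPM in ankle and 30.2 to 90.2 CPM in DRG, and the 8 cord markers to 3862.5 to 4535 CPM in cord and 21.8 to 25.2 CPM in DRG. In DRG with MSU the sensory neuron markers summed to 5954.1 to 6488.7 CPM (4 of 8 fell), those of cord to 44.0 to 55.4 CPM and those of joint, overlapping the controls, to 84.7 to 250.2 CPM, and their part in the DRG results was not tested. The labels do not say whether libraries came from separate animals, so p-values measure the spread between these samples, which may be technical.

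Clotting at the vessel wall starts when tissue factor, the product of F3, meets factor VII in blood and activates factor X, the product of F10, which with factor V turns prothrombin into thrombin. Tissue factor pathway inhibitor (Tfpi) blocks that first step, while thrombomodulin (Thbd) and the endothelial protein C receptor (Procr) redirect thrombin to activate protein C, which shuts clotting down. Von Willebrand factor (Vwf), made by endothelial cells and megakaryocytes, tethers platelets and carries factor VIII. Fibrin is removed by plasmin, which urokinase (Plau) and tissue plasminogen activator (Plat) cut from plasminogen, and the urokinase receptor (Plaur) holds urokinase at the cell surface. Outside clotting, Plaur is a surface protein of activated leukocytes, and Plat is made by neurons and endothelium.

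Sequences just upstream of the transcription start were in RefSeq for 5 of the 9 genes, Plaur, F3, F10, Procr and Tfpi. Those of Plaur and F10, on whose cord response the group was chosen, and of F3 and Procr, which rose in DRG, are printed as 250 bases ending at the base before the start. Capitals mark matches to the AP-1 motif TGANTCA, the GC box GGGCGG and the KLF box CCACCC on either strand. The coordinates are RefSeq's on GRCm38.p6, an older build than the mm39 named in the submitters' notes, and all 4 genes lie on the plus strand, at chr7:24462233-24462482 for Plaur, chr3:121723287-121723536 for F3, chr8:13037058-13037307 for F10 and chr2:155750967-155751216 for Procr.
Plaur: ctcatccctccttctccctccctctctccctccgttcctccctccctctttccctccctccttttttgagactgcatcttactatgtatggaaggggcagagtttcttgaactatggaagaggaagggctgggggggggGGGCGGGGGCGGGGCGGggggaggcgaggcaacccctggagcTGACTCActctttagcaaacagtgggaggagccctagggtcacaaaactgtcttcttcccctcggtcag
F3: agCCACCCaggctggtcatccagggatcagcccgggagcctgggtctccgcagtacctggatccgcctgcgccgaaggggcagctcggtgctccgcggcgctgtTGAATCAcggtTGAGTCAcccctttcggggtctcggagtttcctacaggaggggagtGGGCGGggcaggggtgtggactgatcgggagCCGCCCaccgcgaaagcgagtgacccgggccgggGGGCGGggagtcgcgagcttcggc
F10: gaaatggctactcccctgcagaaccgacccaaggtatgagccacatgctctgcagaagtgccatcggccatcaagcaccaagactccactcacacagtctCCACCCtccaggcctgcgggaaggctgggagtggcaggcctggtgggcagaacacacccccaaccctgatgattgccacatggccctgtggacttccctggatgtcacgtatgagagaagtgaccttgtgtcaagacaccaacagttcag
Procr: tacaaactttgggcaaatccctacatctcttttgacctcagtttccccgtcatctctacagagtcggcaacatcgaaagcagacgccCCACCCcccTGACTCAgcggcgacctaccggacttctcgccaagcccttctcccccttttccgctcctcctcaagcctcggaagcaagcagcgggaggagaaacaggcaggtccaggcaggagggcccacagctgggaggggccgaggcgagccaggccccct
In the Plaur sequence AP-1 letters lay at -69 to -63 from the start, behind a run of 3 GC boxes from -111 to -95, of which the last pair shared a base. F3 held AP-1 letters at both -146 to -140 and -135 to -129, with 3 GC boxes and a KLF box. Procr had AP-1 letters at -154 to -148 and a KLF box at -163 to -158, and F10 had only a KLF box at -150 to -145. AP-1 letters were thus in 3 of 5 genes with a promoter, and in 7.81% of all 32851 RefSeq promoters of 300 bases (250 before and 50 after the start). The GC box and the KLF box were likewise in 3 of the 5 genes each, and in 35.7% and 31.5% of those promoters. TATAAA was in 2 of the 5 genes and in 13.6% of the promoters. The NF-kB consensus, taken as letters that open with GGG and end in CC, was in 8.46% of the promoters. No exact match to it was in these windows for any of the 5 genes, and sites that depart from it were not searched for. Genes were counted once here, also Tfpi with its several promoters, while the shares count promoters. Such a match describes letters in a window and is no evidence of binding.

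The urokinase receptor Plaur rose strongly in the ankle, and its DRG difference did not pass. In the ankle it measured 22.1, 24.1 and 21 CPM in controls and 119.7, 215 and 369 CPM with MSU. Every MSU library lay far above the controls, and the MSU libraries also differed widely among themselves. The mean went from 22.4 ± 1.53 to 235 ± 126 CPM (SD, n = 3). Plaur rose 10.4-fold there (3.38 on the log2 scale, SE 0.46, adjusted p = 0.00356, edgeR quasi-likelihood test).

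In DRG, Plaur measured 5.78, 6.51 and 11.4 CPM in controls and 12.1, 14.0 and 11.1 CPM with MSU. Control 3 sat among the MSU libraries, the groups overlapped, and the difference did not pass (0.67, SE 0.25, adjusted p = 0.0665 by edgeR). Without control 3 it passed, at a log2 fold change of 1.02 and an adjusted p of 0.00135. It passed as well with no count filter (0.000172), with DESeq2 (0.0200) and with limma-voom (0.0180). In the cord, Plaur stood at 1.06, 0.366 and 1.03 CPM in controls, a low level, and at 23.5, 14.8 and 12.8 CPM with MSU. The cord libraries with MSU were all higher, 41 counts in the 3 controls against 1073, and the log2 fold change was 4.32 (SE 0.35).

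**Figure D1:**
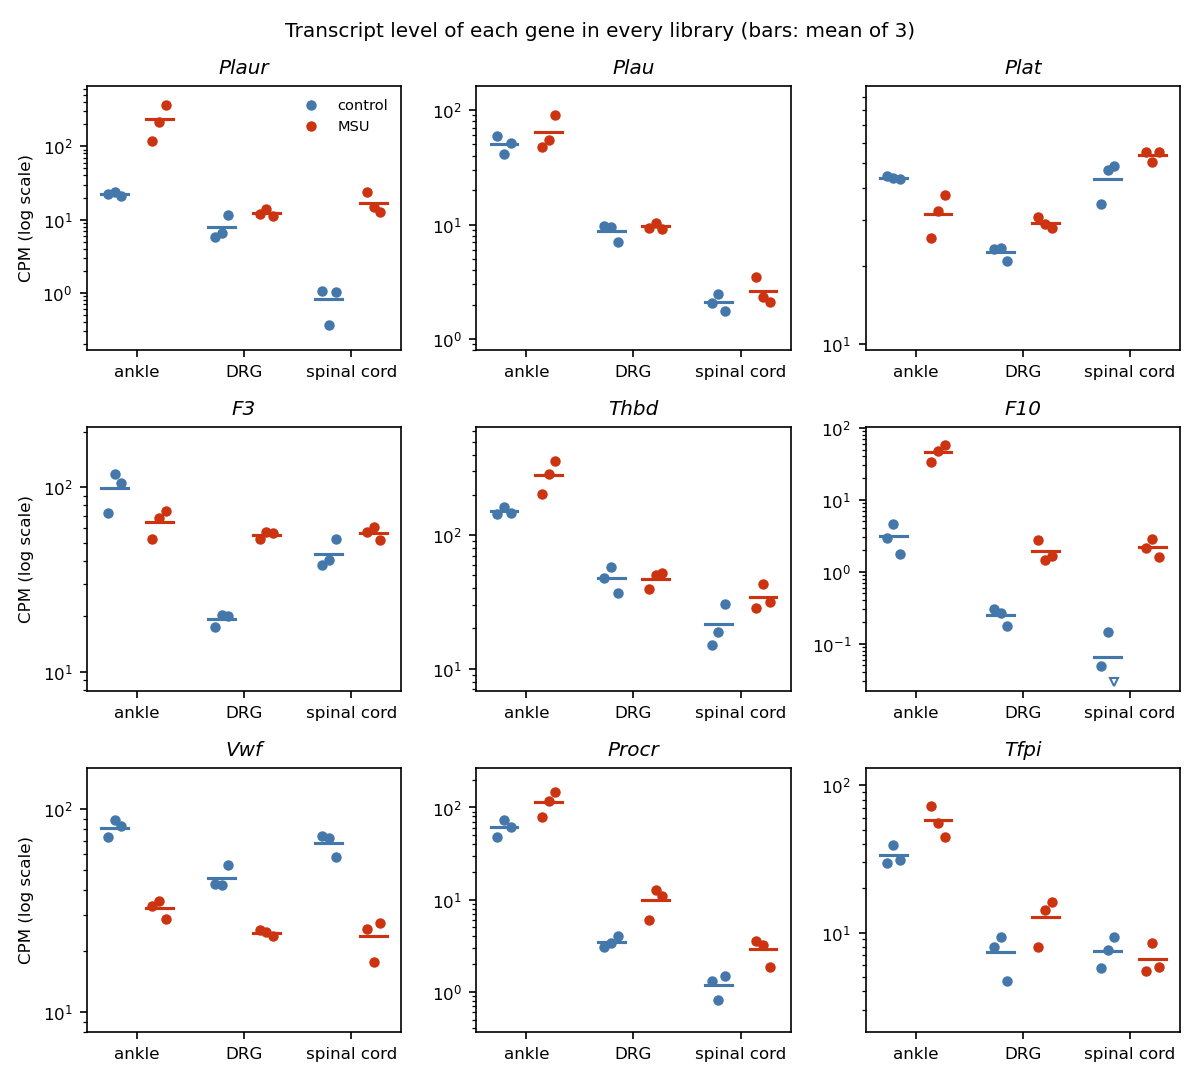
CPM of each of the 9 genes in every library on a log scale, by tissue, with controls in blue and MSU in red. Points are single libraries, horizontal bars are means of 3, and the open triangle marks the cord control with 0 counts of F10; the MSU libraries of Plaur in ankle lie at 119.7 to 369 CPM above controls at 21 to 24.1 CPM, and those of Vwf lie below the controls in every tissue.

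The enzymes of plasminogen activation moved little by comparison. Urokinase (Plau) ranged from 41.3 to 59.6 CPM in ankle controls and from 47.4 to 90.0 CPM with MSU, and the difference did not pass (0.33, SE 0.26, adjusted p = 0.355 by edgeR). It ranged from 7.10 to 9.66 CPM in DRG controls and from 9.16 to 10.4 CPM with MSU (0.13, SE 0.15, adjusted p = 0.545). In cord, Plau lay between 1.77 and 2.49 CPM in controls and between 2.10 and 3.50 CPM with MSU. Its groups overlapped in all 3 tissues.

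Tissue plasminogen activator (Plat) moved in opposite directions in ankle and DRG. In the ankle it read 44.5, 43.9 and 43.3 CPM in controls and 25.6, 32.6 and 37.5 CPM with MSU. All MSU libraries were below the tightly grouped controls, and Plat fell to 72.4% of control (log2 fold change -0.47, SE 0.14, adjusted p = 0.0239, edgeR). This call was close to the threshold: the adjusted p was between 0.0512 and 0.0577 when control 1, 2 or 3 or MSU library 1 or 2 was left out. In DRG the values were 23.3, 23.4 and 20.9 CPM in controls and 31.0, 29.1 and 28.0 CPM with MSU. Here the MSU libraries were all higher and Plat rose 1.30-fold (0.38, SE 0.09, adjusted p = 0.00735), although the adjusted p was 0.0901 in a fit of all 18 libraries. The difference between the ankle and DRG responses was itself tested as an interaction and passed (-0.87, SE 0.18, adjusted p = 0.000921). In cord, Plat read 34.7, 47.0 and 48.7 CPM in controls and 55.0, 50.7 and 55.3 CPM with MSU, without overlap (0.31, SE 0.12).

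Tissue factor (F3), the trigger of clotting, also went opposite ways. In DRG it measured 17.4, 20.4 and 20.0 CPM in controls and 52.5, 57.4 and 56.4 CPM with MSU. The groups were narrow and far apart: the means were 19.3 ± 1.64 and 55.4 ± 2.60 CPM, and F3 rose 2.88-fold (1.53 on the log2 scale, SE 0.09, adjusted p = 3.83e-06, edgeR). In the ankle it measured 72.9, 118 and 105 CPM in controls and 52.2, 68.3 and 74.2 CPM with MSU. MSU library 3 lay just above control 1, so the groups overlapped on this scale, though not per length with all tissues scaled together (27.4 to 44.3 RPKM in controls, 18.5 to 25.3 RPKM with MSU), and F3 fell to 65.6% of control with an adjusted p of 0.0420 (-0.61, SE 0.20). That fall was not called with RLE size factors (0.0511), nor without control 2 (0.111), control 3 (0.121), or MSU library 1 (0.118), 2 (0.103) or 3 (0.0534), and it was called in the fit of all 18 libraries (0.00102). The ankle response was lower than the DRG response, tested as an interaction on the log2 scale (-2.16, SE 0.22, adjusted p = 1.51e-06). In cord, F3 read 38.1, 40.6 and 52.2 CPM in controls and 57.3, 60.8 and 51.9 CPM with MSU, and the groups overlapped (0.38, SE 0.11).

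Factor X (F10) was scarce in every control group and rose in ankle and DRG. In the ankle it measured 2.93, 4.63 and 1.79 CPM in controls and 33.7, 47.1 and 57.1 CPM with MSU. The groups did not overlap, and F10 rose 14.4-fold (3.85, SE 0.36, adjusted p = 0.000259, edgeR). In DRG it measured 0.307, 0.266 and 0.177 CPM in controls and 2.78, 1.46 and 1.68 CPM with MSU, which is 20 counts against 120. Again all MSU libraries were higher, and the rise was 7.29-fold (2.87, SE 0.39, adjusted p = 0.000495). In cord the controls held 3 counts of F10 in all, at 0.0484, 0.146 and 0 CPM, and the MSU libraries 138 counts, at 2.12, 2.89 and 1.59 CPM. The ratio of those counts, scaled to library size, was 34.5 with a 95% interval of 11.6 to 170 that covers counting error only, and a control level this low limits any fold. The F10 responses of ankle and DRG did not differ beyond their error (0.97, SE 0.59, adjusted p = 0.232).

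Some markers of neutrophils and of monocytes and macrophages also rose with MSU. In ankle 7 of 10 neutrophil markers rose, and their sum went from 305 to 1235.8 CPM in controls to between 2486.6 and 3630.8 CPM with MSU, while 6 of 10 monocyte and macrophage markers rose (sums of 1468.7 to 1747.4 against 1542.7 to 2006.8 CPM). In DRG 3 of 10 neutrophil markers rose (139.8 to 244 against 248 to 668 CPM) and 5 of 10 monocyte and macrophage markers (103 to 181 against 199 to 216 CPM). In cord 2 of the 9 neutrophil markers tested rose (66.1 to 80.1 against 93.4 to 238 CPM) and 4 of 10 monocyte and macrophage markers (122 to 159 against 157 to 259 CPM). The monocyte and macrophage sums of controls and MSU libraries overlapped in ankle and cord. Over all tested genes 21.6% rose in ankle, 16.7% in DRG and 5.60% in cord. Markers of both lists had counts in every tissue. Their part in the responses of Plaur and F10 was not tested.

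The anticoagulant genes thrombomodulin, Procr and Tfpi all rose in the ankle, and of these Procr also rose in DRG. Thbd measured 143, 163 and 147 CPM in ankle controls and 202, 288 and 357 CPM with MSU. The MSU libraries were all above the controls, and Thbd rose 1.87-fold (0.90, SE 0.19, adjusted p = 0.00584, edgeR). In DRG it measured 47.6, 57.7 and 36.9 CPM in controls and 39.2, 50 and 51.6 CPM with MSU, with wide overlap (-0.01, SE 0.17, adjusted p = 0.964). The difference between the 2 responses was 0.89 (SE 0.35) and did not pass at an adjusted p of 0.0709, although it passed with DESeq2 (0.0153), with the 12 ankle and DRG libraries alone (0.0307) and without ankle MSU library 1 (0.0319). In cord, Thbd read 15, 18.7 and 30.5 CPM in controls and 28.6, 42.9 and 31.6 CPM with MSU, and control 3 lay within the MSU range (0.70, SE 0.30).

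Procr measured 47.9, 73.3 and 61.1 CPM in ankle controls and 79.2, 119 and 149 CPM with MSU. All MSU libraries were higher and Procr rose 1.90-fold (0.93, SE 0.26, adjusted p = 0.0278, edgeR). That call ended without control 1 (0.0702), control 3 (0.0905), MSU library 2 (0.0908) or MSU library 3 (0.0580). In DRG it measured 3.04, 3.41 and 4.02 CPM in controls and 6.03, 12.6 and 10.9 CPM with MSU. The groups did not overlap, and the rise was 2.85-fold (1.51, SE 0.26, adjusted p = 0.00193). In cord, Procr read 1.31, 0.805 and 1.47 CPM in controls and 3.60, 3.2 and 1.85 CPM with MSU, without overlap at a low level (1.25, SE 0.33).

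Tfpi measured 29.9, 39.3 and 31.3 CPM in ankle controls and 72.8, 55.8 and 44.5 CPM with MSU. Its groups did not overlap and it rose 1.73-fold (0.79, SE 0.19, adjusted p = 0.00950, edgeR), with an adjusted p of 0.0539 in the fit of all 18 libraries. In DRG it measured 8.04, 9.30 and 4.67 CPM in controls and 7.99, 14.2 and 16.1 CPM with MSU. MSU library 1 lay within the control range, and the difference did not pass (0.80, SE 0.34, adjusted p = 0.114). Without that library it passed (1.03, adjusted p = 0.0125), as it did with no count filter (0.000555) and with DESeq2 (0.0138). Fibroblast markers were looked at as well. In ankle they summed to 16515.5 to 17649.6 CPM in controls and 19878.5 to 31694.2 CPM with MSU, and MSU library 1 was highest for both this sum and Tfpi. There 3 of 8 rose and 3 fell, where 21.6% of all tested genes rose and 21.7% fell. In DRG the sums overlapped, at 623 to 1148.9 CPM in controls and 1065.7 to 1717.7 CPM with MSU. Of the 8 markers 1 rose in DRG, near the 16.7% of all tested genes that did. The part of these markers was not tested in either tissue. In cord, Tfpi read 5.76, 7.61 and 9.28 CPM in controls and 5.53, 8.53 and 5.87 CPM with MSU, and the groups overlapped (-0.18, SE 0.22).

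Von Willebrand factor was the member that fell in both tested tissues. In the ankle it measured 72.7, 88.8 and 82.4 CPM in controls and 33.4, 35.4 and 28.9 CPM with MSU. No library overlapped, and Vwf fell to 40.1% of control (-1.32, SE 0.12, adjusted p = 5.13e-05, edgeR). In DRG it measured 43.0, 42.3 and 53.0 CPM in controls and 25.5, 24.9 and 23.7 CPM with MSU. Vwf fell there to 53.6% of control (-0.90, SE 0.10, adjusted p = 0.000203), and the ankle and DRG falls did not differ beyond their error (-0.44, SE 0.21, adjusted p = 0.117). In cord the controls read 74.3, 72.3 and 58.1 CPM and the MSU libraries 25.8, 17.7 and 27.7 CPM, a log2 fold change of -1.52 (SE 0.16), with every MSU library below every control.

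In bulk tissue, fewer cells of a type and less RNA per cell cannot be told apart, so Vwf was set beside 12 endothelial marker genes. In ankle 2 of these rose and 4 fell, and their summed level was 654 to 817 CPM in controls and 731 to 781 CPM with MSU. The log2 fold change of Vwf was below that of all 12, without a test of the differences, and of the 12 the tight junction gene Cldn5 was lowest (-1.09, adjusted p = 0.000141 by edgeR) and the VEGF receptor Flt1 was highest (1.07, adjusted p = 0.000210). Cdh5, the endothelial cadherin, rose (0.88, adjusted p = 0.000568), and Pecam1 did not change beyond its error (-0.04, adjusted p = 0.817). In DRG 2 rose and 5 fell, with sums of 200.4 to 208 against 163 to 193 CPM, and 3 of the 12 had a lower log2 fold change than Vwf. In cord 5 fell and 7 did not pass, and the sum went from 296 to 443 CPM in controls to 178 to 265 CPM with MSU. The cord falls were those of Kdr (-2.27, adjusted p = 9.80e-05), Tek (-1.83), Ptprb (-1.83), Cldn5 (-1.21) and Egfl7 (-0.85), while Pecam1 (-0.29, adjusted p = 0.166) and Cdh5 (0.18, adjusted p = 0.323) did not pass. Mural cell markers moved as well: 5 of 6 fell in ankle, where their sum was 977 to 1126.6 CPM in controls and 555 to 648 CPM with MSU, 2 of 6 in DRG and 1 of 6 in cord. Of 10 platelet and megakaryocyte markers, 9 could be tested in ankle and 1 rose (87.1 to 139 against 115 to 161 CPM), 1 of 5 tested rose in DRG, and Gp1bb was at 0 in all libraries. Over all tested genes 21.6% rose and 21.7% fell in ankle, 16.7% and 18.7% in DRG, and 5.60% and 4.07% in cord. Some of these marker counts lie near those shares. The part of cell numbers in the Vwf values was not tested.

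**Figure D2:**
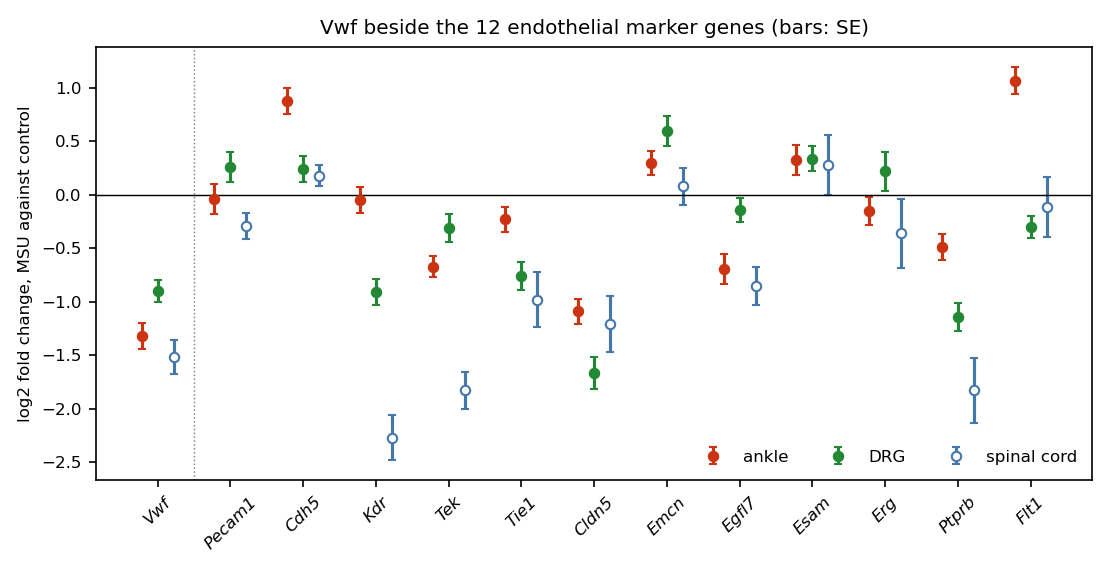
Log2 fold change with MSU against control (y axis, bars SE) of Vwf and, right of the dotted line, of 12 endothelial marker genes in ankle (red), DRG (green) and spinal cord (open blue). In ankle Vwf at -1.32 lies below all 12 markers, which run from -1.09 for Cldn5 to 1.07 for Flt1; in cord Kdr, Tek and Ptprb lie below Vwf.

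Counted together, 5 of the 9 genes rose in the ankle (Plaur, F10, Thbd, Procr and Tfpi) and 3 fell (Plat, F3 and Vwf). Among 17690 genes tested there, 21.6% rose and 21.7% fell. In DRG 4 rose (Plat, F3, F10 and Procr), Vwf fell and 4 did not pass, where 16.7% of 17008 genes rose and 18.7% fell. The median log2 fold change of the 9 was 0.79 in ankle and 0.67 in DRG, against -0.02 and 0.02 over all tested genes. Upper quartile size factors and a fit of all 18 libraries shifted the median of all ankle genes to -0.12 and -0.13. Rises then made up 40.6% and 39% of the ankle calls, against 49.9% as reported. No ankle member changed sign under either setting. In DRG, Thbd, which was not called, went from -0.01 to 0.01 with upper quartile size factors.

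In the interaction test of ankle against DRG, Plaur responded more in the ankle (2.67, SE 0.53, adjusted p = 0.00167, edgeR) and Plat and F3 less, while the other 6 did not pass. Over 20757 genes in that test 14.3% were called higher and 18.1% lower in the ankle. In cord the groups did not overlap for Plaur, Plat, F10 and Procr, which were higher with MSU, and for Vwf, which was lower, and they overlapped for the other 4. Over all 17507 cord genes 13.7% had MSU libraries wholly above controls and 14.1% wholly below. Nothing is read from the cord counts, since that comparison chose the group.

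**Figure D3:**
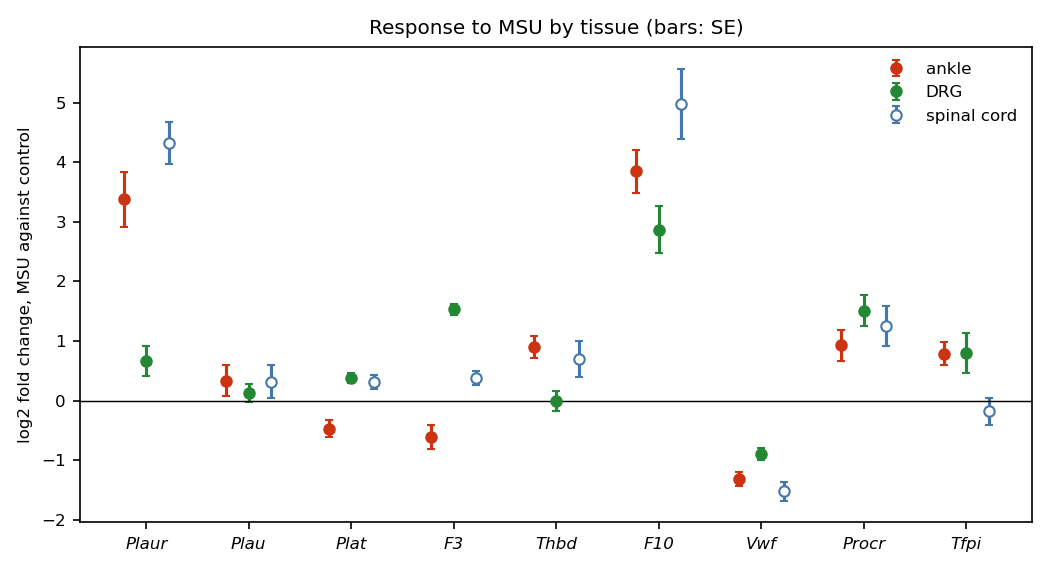
Log2 fold change with MSU against control (y axis, bars SE) of the 9 genes in ankle (red), DRG (green) and spinal cord (open blue, not tested). Plat and F3 lie below 0 in ankle and above 0 in DRG, and Vwf lies below 0 in all 3 tissues, at -1.32, -0.90 and -1.52.

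Levels were compared between genes per kilobase of exon (RPKM, with libraries of all tissues scaled together). In ankle controls Thbd at 38.2 ± 2.71, F3 at 36.8 ± 8.63, Procr at 28.2 ± 5.89 and Plau at 20.3 ± 3.70 RPKM led, each overlapping the next in range. Plaur followed apart at 8.07 ± 0.614 RPKM, then Plat at 6.63, Tfpi at 5.77 and Vwf at 4.77 RPKM with overlapping neighbours, and F10 was apart and lowest at 1.08 ± 0.501 RPKM. With MSU, Plaur at 77.9 ± 40.5 and Thbd at 66.1 ± 17.0 RPKM had the highest means in the ankle and overlapped in range, and Vwf at 1.78 ± 0.200 RPKM had the lowest.

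Per length, control DRG were led by Thbd at 14.3 ± 3.01 RPKM and F3 at 8.55 ± 0.698 RPKM, and the order was reversed with MSU, at 13.3 ± 2.02 and 23.2 ± 1.29 RPKM. In cord F3 had the highest mean in both groups, at 17.3 ± 3.03 and 22.8 ± 1.76 RPKM. Plaur had the next to lowest mean in control cord at 0.315 ± 0.151 RPKM, and with MSU, at 6.62 ± 2.22 RPKM, its range overlapped those of Plat and Thbd. F10 had the lowest mean in both cord groups, at 0.0238 ± 0.0274 and 0.820 ± 0.242 RPKM.

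Across tissues, the control levels of Plaur, Plau, Thbd, F10 and Procr ran from ankle to DRG to cord with no overlap between libraries. F3 was highest in ankle and lowest in DRG, also without overlap. After MSU the F3 levels of the 3 tissues lay close together, at 18.5 to 25.3 RPKM in ankle, 21.7 to 24.1 in DRG and 20.9 to 24.4 in cord. The control ranges of Plat in cord and ankle, 5.58 to 7.84 and 6.44 to 6.78 RPKM, overlapped, and DRG lay below both at 3.78 to 4.20 RPKM. Those of Vwf also overlapped between ankle and cord and between cord and DRG.

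**Figure D4:**
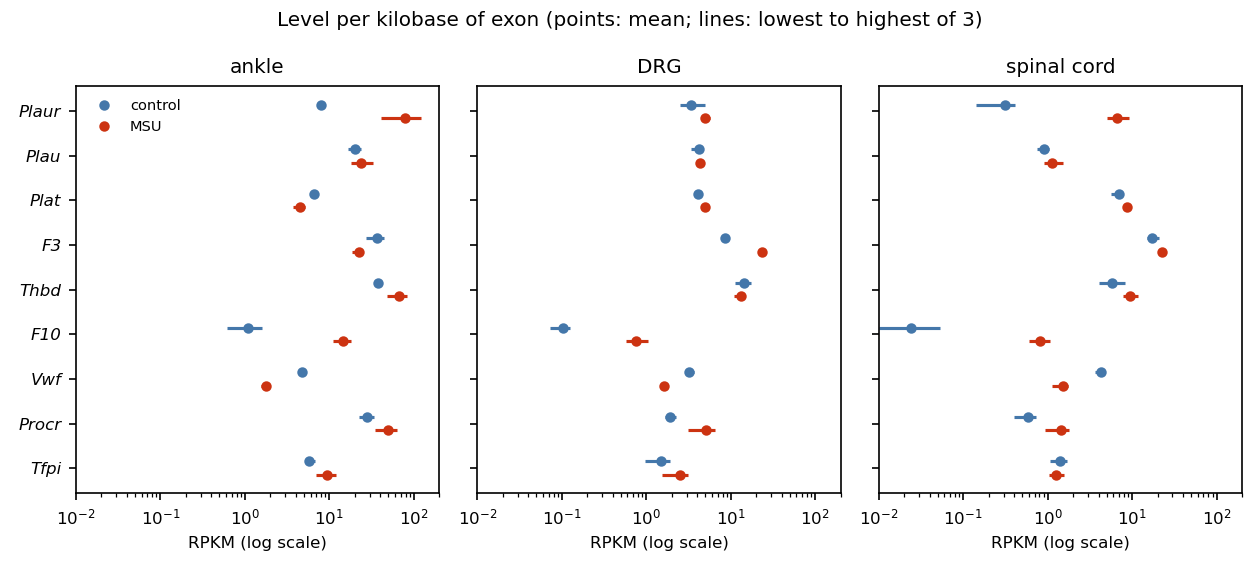
RPKM on a log scale (x axis) of each gene in ankle, DRG and spinal cord, controls in blue and MSU in red; points are means and lines run from the lowest to the highest of 3 libraries, reaching the left edge where a library was at 0. Control F3 runs at 36.8, 8.55 and 17.3 RPKM in the 3 tissues, and with MSU at 22.4, 23.2 and 22.8 RPKM.

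Ratios of RPKM within a library show how receptor, enzyme and inhibitor transcripts stood to each other, as a description. Plaur to Plau was 0.336, 0.527 and 0.367 in ankle controls and 2.29, 3.55 and 3.70 with MSU. In cord it was 0.463, 0.133 and 0.528 against 6.08, 5.72 and 5.52, so the receptor transcript passed that of its ligand with MSU in both tissues. In DRG the ratio was 0.541, 0.613 and 1.45 against 1.17, 1.21 and 1.10, and the groups overlapped.

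The ratio of F3 to its inhibitor Tfpi went from 5.27, 6.52 and 7.27 to 1.55, 2.65 and 3.61 in ankle, where all MSU libraries were lower. In DRG it was 4.68, 4.75 and 9.25 against 14.2, 8.73 and 7.55, with overlap. In cord it was 14.3, 11.5 and 12.2 against 22.4, 15.4 and 19.1, where all MSU libraries were higher. Thbd to Vwf was higher with MSU in every library of each tissue, from 7.72 to 8.49 against 26.0 to 53.4 in ankle, 3.0 to 5.88 against 6.64 to 9.39 in DRG, and 0.870 to 2.26 against 4.78 to 10.5 in cord.

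**Figure D5:**
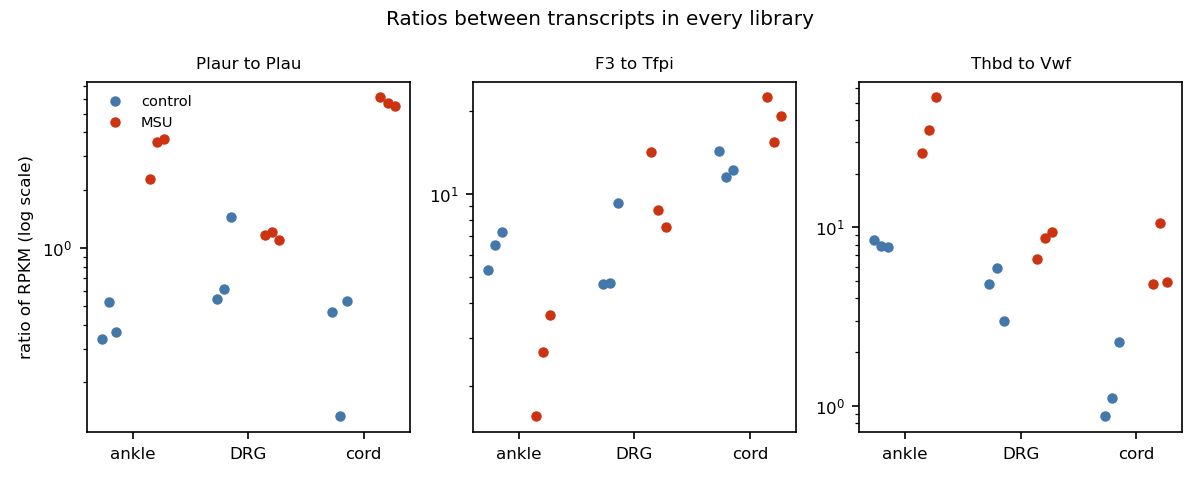
Ratio of RPKM on a log scale (y axis) in every library by tissue, controls in blue and MSU in red, for Plaur to Plau, F3 to Tfpi, and Thbd to Vwf. F3 to Tfpi lies at 1.55 to 3.61 with MSU in ankle below controls at 5.27 to 7.27, and for Thbd to Vwf the MSU libraries lie above controls in all tissues.

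The other genes of these pathways were taken as lists of fibrinolysis partners, clotting factors and fibrinogen, anticoagulants, and receptors with platelet adhesion genes, 63 genes in all, of which 62 were found by name. In ankle, where 21.6% of all genes rose and 21.7% fell, 46 were tested, 20 rose and 5 fell, with a median log2 fold change of 0.57. In DRG, where 16.7% of all genes rose and 18.7% fell, 42 were tested, 15 rose and 2 fell (median 0.32). In cord, where 5.60% of all genes rose and 4.07% fell, 38 were tested, 5 rose and 33 were not called (median 0.09). The counts of the single lists below are to be read beside the same shares, and some lie near them. Thbs1, F12 and Klkb1 were each on more than a single list.

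Among 18 fibrinolysis partners, 5 of 14 tested rose and 2 fell in ankle, 6 of 11 rose in DRG (2 in the fit of all 18 libraries) and 2 of 13 in cord (1 with a mean count filter of 10, and 4 without control 3). Serpine2, an inhibitor of thrombin and urokinase, rose in ankle (0.78, adjusted p = 0.00222, edgeR) and DRG (0.41, adjusted p = 0.00771) and not in cord (0.06, adjusted p = 0.659). Serpinb2, a urokinase inhibitor, passed in ankle at an adjusted p of 0.0446 (0.70) with overlapping groups, and had too few counts elsewhere. Thbs1, the matrix protein thrombospondin, rose 7.35-fold in ankle (adjusted p = 0.00379), and Masp1, a protease of the complement lectin pathway, fell to 47.7% of control (adjusted p = 0.00574). S100a10, which with Anxa2 forms a plasminogen receptor, rose in DRG (0.49, adjusted p = 0.00779). In cord S100a10 did not pass (0.41, adjusted p = 0.176), but did with no count filter (0.00326) and without control 3 (0.0268). Anxa2 passed in no tissue, except in DRG without MSU library 1 (0.0476). Serpinf2, the plasmin inhibitor, rose in cord on few counts (4 against 43, adjusted p = 0.00872). Plg, plasminogen itself, had 10 and 47 counts in ankle controls and MSU libraries and was too low to test in any tissue.

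Of 19 clotting factor and fibrinogen genes, 5 of 11 tested rose and 1 fell in ankle, and 3 of 10 rose in DRG. The DRG count was 5 without MSU library 1, and the ankle fall was lost without control 3 or MSU library 3. In cord edgeR called none of 8, with 1 at an unadjusted p under 0.05, while DESeq2 called 1 and limma-voom 0. Other edgeR fits called 2 with no count filter or with the replicate block. They called 1 with all 18 libraries or without cord MSU library 1 or 2. F7, the partner of tissue factor, rose 3.93-fold in ankle (adjusted p = 0.000682, edgeR), and F5, the cofactor of factor X, rose 1.8-fold (adjusted p = 0.0167). F8, which circulates on von Willebrand factor, fell in ankle to 58.5% of control (adjusted p = 0.0169) and did not pass in DRG (0.15, adjusted p = 0.498) or cord (-0.26, adjusted p = 0.475). F13a1, the fibrin crosslinking factor, rose 5.20-fold in DRG (adjusted p = 1.27e-06) and did not pass in ankle (0.05, adjusted p = 0.886). In cord its groups did not overlap and it missed the threshold (2.23, adjusted p = 0.0583), but it passed with DESeq2 (0.000103), in the fit of all 18 libraries (0.00171) and without MSU library 1 (0.00705) or 2 (0.00364). Fgl2, a membrane prothrombinase, rose in ankle (1.02, adjusted p = 0.00299) and was at 1.85 in DRG (adjusted p = 0.0504), where it passed with RLE size factors (0.0496), with DESeq2 (0.000928), in the fit of all 18 libraries (0.00793) and without MSU library 1 (0.0245). Fibrinogen Fgb had 0 counts in DRG controls and 68 with MSU, at least 26.4-fold higher against a floor of 3 counts over the group, and Fgg rose there to 2.21 ± 0.196 CPM (1.07, adjusted p = 0.0215). Prothrombin, F2, had too few counts to test in any tissue.

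Of 15 genes on the anticoagulant list, 8 of 11 tested rose and 1 fell in ankle, 4 of 12 rose and 1 fell in DRG, and 1 of 10 rose in cord. The 8 ankle rises include Thbs1, the thrombospondin given above among the fibrinolysis partners. The cord count was 2 with no count filter, DESeq2, the replicate block or the fit of all 18 libraries. It was 0 with limma-voom and without control 1 or 2. Tfpi2, a relative of Tfpi, rose 3.97-fold in ankle (adjusted p = 0.000181, edgeR) and 4.82-fold in DRG (adjusted p = 0.00121), and in cord on 15 against 79 counts (1.95, adjusted p = 0.0438). Pros1, protein S, the cofactor of activated protein C, rose 3.08-fold in DRG (adjusted p = 0.000233) and 1.26-fold in ankle (adjusted p = 0.0228). In cord Pros1 missed the threshold without overlap between groups (0.95, adjusted p = 0.0617), and it passed with no count filter (0.00151), with DESeq2 (0.0167), in the fit of all 18 libraries (0.00571) and without MSU library 1 (0.0053) or 2 (0.0022). In ankle Entpd1, which degrades the platelet agonist ADP, rose 3.43-fold (adjusted p = 0.00168), and Nos3, the endothelial nitric oxide synthase, rose 2.08-fold (adjusted p = 0.000415). Serpina10, an inhibitor of factor X, rose there 8.91-fold on 22 against 105 counts (adjusted p = 0.00316). Protein C itself, Proc, was too low to test in any tissue, and Adamts13, which cleaves von Willebrand factor, was tested in DRG and did not pass (-0.61, adjusted p = 0.528).

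Among 13 receptor and platelet adhesion genes with a match, 3 of 12 tested rose and 1 fell in ankle, 2 of 10 rose and 1 fell in DRG, and 2 of 9 rose in cord. The ankle count of rises was 1 without control 1 or MSU library 1, 2 or 3, and that of falls was 0 without control 1, 2 or 3 or MSU library 3. Selp, the P-selectin that is stored with von Willebrand factor in endothelial granules, went opposite to Vwf. It rose from 12.5 ± 4.98 to 135 ± 9.84 CPM in ankle (10.8-fold, adjusted p = 0.000194, edgeR) and from 0.630 ± 0.337 to 39.3 ± 2.58 CPM in DRG (65.7-fold, adjusted p = 6.43e-07). In cord it went from 5 counts in the controls to 1632 with MSU, at 25.8 ± 6.24 CPM (adjusted p = 3.88e-06). Itgb3, the platelet and endothelial integrin chain, fell in DRG to 37.7% of control (adjusted p = 0.000265) and rose 2.13-fold in ankle (adjusted p = 0.0327). Stab2, a scavenger receptor of sinusoidal endothelium, rose in cord (1.69, adjusted p = 0.00837). The thrombin receptor F2r passed in no tissue, except in DRG with no count filter (-0.31, adjusted p = 0.0234). The protease receptor F2rl1 fell in ankle to 61.1% of control (adjusted p = 0.0362).

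Some of these pathway calls near the threshold depended on single libraries or settings. In ankle the calls of Serpinb2, Pros1, Itgb3 and F2rl1 each ended without at least 3 of the 6 libraries, each left out in turn, and those of F5 and F8 without control 3 or MSU library 3. In DRG the call of Fgg ended without control 1 or 2 or MSU library 3. In cord that of Tfpi2 ended without 5 of the 6 libraries, and that of Stab2 without control 2 and in the fit of all 18 libraries. In that fit the calls of Fgl2 and Pros1 in ankle and of Serpine2, S100a10 and Fgg in DRG were lost as well.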

How the data were processed

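Per the labels, total RNA was isolated in TRIzol and made into MGI libraries by the VAHTS Universal V6 kit. Tables deposited by the authors hold raw whole-number counts per Ensembl gene, 1 table per tissue, not normalized, as their values show. The submitters' processing notes name HISAT2, HTSeq 0.11.3, DESeq2 and mm39 without role or order. Annotation release and strand setting are not given in the sources used here, so reads of overlapping antisense genes cannot be told apart, though no exon of the 9 genes overlaps an exon of another gene in GENCODE M21. Symbols and exon lengths come from GENCODE M21, which names 52083 of 55359 gene IDs.

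Genes were kept by filterByExpr (minimum count 10, minimum total 15), scaled by TMM and tested per tissue in edgeR 4.0.16 (R 4.3.3) by quasi-likelihood F test, Benjamini-Hochberg adjusted over all tested genes, with a threshold of 0.05. Every adjusted p is from this test unless another tool is named. The SE is the log2 fold change divided by the square root of F. CPM use effective library sizes. The difference between ankle and DRG responses was an interaction over all 18 libraries, which treats them as independent. Some numbers in the column names recur across tissues, and whether these mark the same animals is not given. Alternatives tried were scaling by RLE or by upper quartiles, no filter on counts, a mean count of at least 10, DESeq2 1.42.0, limma-voom (3.58.1), a replicate block, all 18 libraries in 1 fit, and leaving out each library. The tests were also tested on simulated data. The lowest chi-square per degree of freedom between replicates was 5.29, so no library copied another.

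The 9 genes and all lists were chosen with earlier results of these data known. Named pathway genes were 17 set by name, plus list genes with an adjusted p under 0.05 and an absolute log2 fold change of at least 1, at most 4 per list and tissue; 1 of these is counted in its lists and not reported here.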

Additional observations from a re-analysis of the deposited data

Results flagged for a closer look

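In 3 of the 9 genes the response to MSU differed between ankle and DRG in the interaction test. Plaur responded more in the ankle, by 2.67 on the log2 scale. The Plat response was lower in the ankle than in DRG (-0.87), as was that of F3 (-2.16). For Plat, all ankle MSU libraries lay below the controls (-0.47) and all spinal cord MSU libraries above them (0.31), a difference that was not tested.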

How the results depend on the processing

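No called result changed sign, and among gene-level results most kept their call. Uncalled or untested members near 0 did change sign, with log2 fold changes from -0.16 to 0.15 for Thbd in DRG, -0.38 to 0.02 for Tfpi in cord, and, ankle minus DRG, -0.13 to 0.36 for Plau and -0.27 to 0.19 for Tfpi. Leaving out 1 library each time, the ankle members called lower numbered 1 to 2 (3 in the full set), because Plat, F3 or both lost their call, ankle pathway genes called lower 3 to 5, spinal cord pathway genes called higher 3 to 6 (5 in the full set), spinal cord genes called lower 359 to 724 (712 in the full set), and members with a higher ankle than DRG response 1 to 2. That count was also 2 with a mean count filter of 10, with DESeq2 and with the 12 ankle and DRG libraries alone, Thbd being added. Spinal cord pathway genes called higher were 9 with no count filter. Spinal cord genes called lower were 365 in the fit of all 18 libraries, where rises were 70.0% of cord calls against 57.9%. The causes were not tested. Whether the replicate numbers of the titles pair the libraries was not settled. Correlations of control and MSU libraries with the same title number were 0.227, 0.15 and -0.065 in ankle, 0.142, 0.0499 and 0.0182 in DRG, and 0.172, 0.0882 and -0.126 in cord. With different numbers they ran from -0.355 to 0.258 in ankle, -0.136 to 0.0549 in DRG and -0.247 to 0.159 in cord, so the values overlapped. The count columns carry other numbers, and pairing by those was not checked. With the replicate block spinal cord pathway genes called higher were 8. By list, clotting factor and fibrinogen genes called higher in cord were then 2, and anticoagulants 2. No other count moved by over 1.5 times with that block. In the cord, F10 rests on 3 control counts, and its log2 fold change was 5.96 without control 2.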

Other observations

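Across the 18 libraries, the genes whose log2 CPM followed Plaur most closely, of 15181 compared, were Bst1 (Pearson r = 0.957), Manf (0.953), Aff1 (0.952), Tspan4 (0.951) and Bcl3 (0.95). For F10 they were Serpina3f (0.985), Csrnp1 (0.981), Plac8 (0.981), Gpr65 (0.980) and Icam1 (0.979). These values describe libraries that share tissue and treatment, which set much of the spread, and no test was made. Itgb3 and Selp were singled out after their values were seen, so their differences between tissues are given without a p-value. The MSU response of Itgb3 was higher in ankle than in DRG by 2.48 on the log2 scale (SE 0.36). The response of Selp was lower in ankle (-2.63, SE 0.46), where its control mean was 12.5 CPM against 0.63 CPM in DRG. Erythroid markers summed to 193 to 259.9 CPM in DRG controls and 407 to 634 CPM with MSU, and 5 of 6 rose.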
